A study of Mus musculus with 2 samples.

Results

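The genes described here encode splicing factors of the *Srsf*, *Hnrnp*, *Sf3a*, *Sf3b* and *U2af* families. They were every gene symbol in the count files that begins with Srsf and a digit, with Hnrnp, with Sf3a or Sf3b and a digit, or with U2af. The rule used names and no measured value, and it found 43 of the 24421 symbols. There were 11 *Srsf*, 20 *Hnrnp*, 3 *Sf3a*, 6 *Sf3b* and 3 *U2af* genes.

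The RNA came from hematopoietic stem cells (HSCs), which sit in bone marrow, renew themselves and supply every blood lineage. There was 1 library labelled WT, with the genotype Ezh2 +/+ CreERT+/-, and 1 labelled Ezh2 KO, with the genotype Ezh2 Δ/Δ CreERT+/-. *Ezh2* encodes the methyltransferase of Polycomb repressive complex 2, and the question set by the design is how its loss alters RNA levels in HSCs. In both groups CD45.2 marrow on a C57BL/6 background had been placed in lethally irradiated CD45.1 recipients, so the WT cells also carried CreERT and had also met tamoxifen. Tamoxifen was given as 100 µl of 10 mg/ml daily for 5 days, and HSCs, gated as CD150+ and c-kit+ Sca-1+ cells without lineage markers, CD34, CD48 or Flt3, were sorted 1 month later. The labels give neither the age of the mice, nor how many recipients were pooled, nor the promoter of the CreERT transgene, nor a CD45.2 gate that would remove cells of the host.

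Pre-mRNA splicing removes introns through a spliceosome that is assembled anew on each intron. The large U2AF subunit binds the pyrimidine tract before the 3′ splice site and the small subunit reads the AG at its end, after which the U2 snRNP, whose SF3A and SF3B subcomplexes grip the branch point, is recruited. SR proteins, encoded by the *Srsf* genes, bind exonic enhancers and favour the use of nearby splice sites, whereas hnRNP proteins coat nascent RNA and often oppose them. Many of these genes limit their own output by splicing a premature stop codon into their transcripts, which nonsense-mediated decay (NMD) then removes. *SRSF2*, *SF3B1* and *U2AF1* are recurrently mutated in myelodysplastic syndromes, clonal disorders of HSCs.

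The libraries held 5763118 (WT) and 4157280 (labelled Ezh2 KO) reads counted on genes, and 3 counts corresponded to 0.521 and 0.722 CPM (counts scaled to a fixed library total). With 1 library per group no difference has a replicate check, so no p-value is given. Each comparison is a log2 ratio of normalised counts plus 1, the library labelled Ezh2 KO over WT, followed by its 95% counting interval, which covers counting error only. Genes with a mean of at least 1 CPM were compared, 12588 in all, and a gene was called different at 1.5-fold or more.

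The targeted gene did not separate the libraries. Normalised counts of *Ezh2* were 142.5 (WT) and 150.3 (labelled Ezh2 KO). The log2 ratio was 0.08 (-0.27 to 0.42), and counts per gene do not show whether the floxed exons were present. Directions below are therefore those of the labels. In the order WT and labelled Ezh2 KO, which holds wherever a pair of values follows, *Xist* had 801 and 4 counts and the Y-linked *Ddx3y* 0 and 275, so sex-chromosome expression differed together with the label and cannot be told apart from it.

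Markers of HSCs were present in both libraries: the 10 genes of that list made up 0.422% and 0.451% of gene counts. *Slamf1*, which encodes CD150, was at 446.2 and 289.0 normalised counts. Of the gated-out markers, *Cd48* was at 10.3 and 12.8 normalised counts and *Cd34* at 821.2 and 966.0, a log2 ratio of 0.23 (0.10 to 0.37). *Flt3*, at 84.1 and 163.1, was past 1.5-fold, with a log2 ratio of 0.95 (0.57 to 1.34). Markers of other cells also differed. All 5 eosinophil markers were at 0 in WT and summed to 3205 counts in the library labelled Ezh2 KO. Neutrophil markers made up 0.185% and 0.367% of counts. Of these 8, 6 were at least 1.5-fold higher and 1, *Elane*, was at least 1.5-fold lower, at 738.0 and 435.8 normalised counts. The summed log2 ratio was 1.88 for erythroid markers (4 of 4 higher), 2.98 for early B lymphoid markers (4 of 4 higher of those compared) and -1.09 for megakaryocyte markers (3 of 4 lower). The part of these cells in the values below was not tested. In sorted bulk RNA, a change in how many cells of a type were present and a change in RNA per cell cannot be told apart.

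The promoters of 4 genes are shown because their genes carry the main contrasts of the data: *Hnrnpdl* and *Srsf5* were the abundant members with the highest ratios, *Sf3b3* was the one with the lowest, and *Srsf2* differed little between libraries. Each is the RefSeq window on GRCm38.p6 from 250 bases before to 50 bases after the first listed start, 5′ to 3′ on the strand of the gene. Capitals mark matches on either strand to an ETS motif, whose letters are CCGGAAG. They also mark the CCAAT box. The last motif in capitals is the TATA box, searched as TATAAA.
Srsf5, chr12:80945249-80945548, plus strand: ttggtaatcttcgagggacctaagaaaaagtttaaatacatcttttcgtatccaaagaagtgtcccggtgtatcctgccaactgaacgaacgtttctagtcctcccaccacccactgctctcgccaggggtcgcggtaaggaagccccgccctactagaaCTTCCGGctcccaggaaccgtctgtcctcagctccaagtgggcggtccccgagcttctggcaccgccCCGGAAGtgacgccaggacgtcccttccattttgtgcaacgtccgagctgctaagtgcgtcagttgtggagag
Hnrnpdl, chr5:100039173-100039472, minus strand: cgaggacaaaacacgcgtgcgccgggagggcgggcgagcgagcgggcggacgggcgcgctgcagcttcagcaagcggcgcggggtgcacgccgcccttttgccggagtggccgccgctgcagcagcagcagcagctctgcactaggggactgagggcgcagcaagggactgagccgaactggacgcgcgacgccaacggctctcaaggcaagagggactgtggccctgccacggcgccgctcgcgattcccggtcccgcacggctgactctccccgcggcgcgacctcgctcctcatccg
Sf3b3, chr8:110846754-110847053, minus strand: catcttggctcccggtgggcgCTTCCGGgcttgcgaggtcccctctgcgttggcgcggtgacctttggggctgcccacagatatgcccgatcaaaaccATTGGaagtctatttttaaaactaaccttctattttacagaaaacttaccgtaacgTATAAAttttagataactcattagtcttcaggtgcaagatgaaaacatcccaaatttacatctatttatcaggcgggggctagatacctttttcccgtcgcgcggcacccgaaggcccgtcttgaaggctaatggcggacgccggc
Srsf2, chr11:116853045-116853344, minus strand: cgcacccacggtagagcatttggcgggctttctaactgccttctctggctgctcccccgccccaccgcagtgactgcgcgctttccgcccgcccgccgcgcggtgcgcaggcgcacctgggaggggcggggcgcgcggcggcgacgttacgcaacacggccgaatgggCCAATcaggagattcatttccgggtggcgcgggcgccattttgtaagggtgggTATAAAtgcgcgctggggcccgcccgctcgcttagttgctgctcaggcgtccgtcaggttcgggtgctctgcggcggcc

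The *Srsf5* window held the ETS letters at -90 and -23 from the start. The *Hnrnpdl* window lies inside the span GENCODE gives the gene, whose start is farther upstream. It held none of the marked motifs, and 42 CpG dinucleotides against 20 in that of *Srsf5*. The *Sf3b3* window held an ETS match at -229, a CCAAT box at -152 and TATAAA at -96, and the *Srsf2* window a CCAAT box at -82 and TATAAA at -29. These are matches of letters and do not show binding.

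A window was matched for 38 of the 43 genes. Their promoters were rich in CpG, with a median of 27.5 per window against 21 in the promoters of compared genes and 7 in all promoters. The ETS letters were in 12 of 38 (31.6%), against 18.5% of the 9623 promoters of compared genes and 9.12% of all 27025. A CCAAT box, the target of the factor NF-Y, was in 19 of 38 (50%), against 38.7% and 37.9%, and a GC box (GGGCGG, not capitalised above) in 28 of 38 (73.7%), against 64.4% and 35.9%. TATAAA was in 5 of 38 (13.2%), against 6.73% and 14.2%. The core of the NRF1 site, GCGCATGC, was in 2 of 38 (5.26%), against 5.58% and 2.81%, and the full cyclic AMP response element TGACGTCA was in 0 of 38, against 3.25% and 1.88%. Its shorter half-site TGACG, which any full element also holds, was in 19 of 38 (50%), against 32% and 21%. Motif frequencies move with CpG content, which differed between these sets.

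All 43 genes passed the filter at 1 CPM. Of these, 2 (*Hnrnpdl* and *Srsf12*) were at least 1.5-fold higher in the library labelled Ezh2 KO, where 10.5% of compared genes were, and 0 were at least 1.5-fold lower, where 10.0% were. Neither call held under every setting: after thinning to equal depth *Hnrnpdl* was at 0.58 on the log2 scale, under 1.5-fold, and a filter at 10 CPM left *Srsf12* out. The count lay below the background in both directions, but members were more abundant than most compared genes. Among the 40 members with at least 100 normalised counts, 1 was higher and 0 were lower, where 3.15% and 4.08% of 8083 genes were called. Counts this small cannot be set apart from those shares. The median log2 ratio over the 43 genes was 0.02 and the range -0.47 to 2.46, beside a median of -0.0032 over compared genes. Counting error alone did not cover every difference: the interval lay above 0 for 9 of the 40 members, against 20.3% of genes that abundant, and below 0 for 11, against 24.0%.

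Most members were close to equal in the 2 libraries. Within 0.32 of 0 on the log2 scale lay 37 of 43 (86.0%), against 58.9% of compared genes, but members are abundant and abundant genes scatter less. Among genes of at least 500 normalised counts the shares were 30 of 33 members (90.9%) and 2094 of 2458 genes (85.2%), so most of the gap to the background was gone at that level. Summed, the 43 genes took 1.17% of gene counts in both libraries, with a log2 ratio of -0.03 (-0.05 to -0.01) after normalisation.

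**Figure D1:**
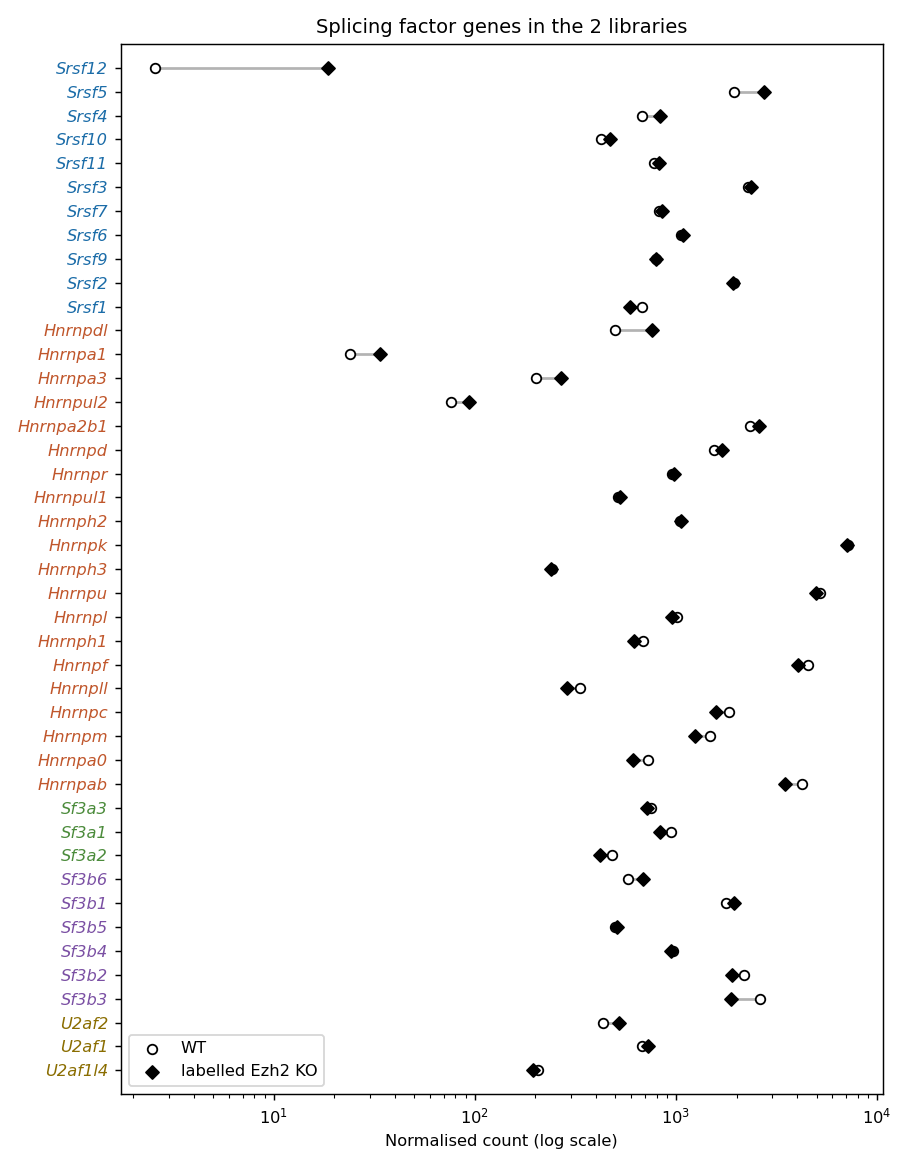
Normalised count (log scale) of each of the 43 genes in the WT library (open circles) and the library labelled Ezh2 KO (filled diamonds), grouped and coloured by family. The symbols of most genes nearly coincide, from *Hnrnpk* at about 7159 and 7097 down to *Srsf12* at 2.57 and 18.6.

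Per kilobase of exon, the order of the genes was nearly the same in both libraries (Spearman's rho 0.989 over the 43 genes, a description, since the libraries share gene lengths and sequence). *Hnrnpk* was highest in WT at 315 CPM per kilobase, followed by *Hnrnpab* at 307 and *Hnrnpf* at 302. In the library labelled Ezh2 KO *Srsf5* was highest at 342, up from 237, ahead of *Hnrnpk* at 319. *Srsf12* was lowest in both at 0.165 and 1.22, below *Hnrnpa1* at 2.53 and 3.64.

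The *Srsf* genes were the family with the largest share of positive ratios among those with more than 3 members. Of the 11, 8 lay above 0 and 3 below, beside 6244 of the 12588 compared genes above 0. A family this small cannot be set apart from that share. The median log2 ratio of the 11 was 0.05. Their summed share of counts was 0.231% and 0.258%, giving a log2 ratio of 0.13 (0.09 to 0.17). *Srsf5* held the largest difference in normalised counts, and without it, a choice made after its value was seen, the summed log2 ratio was 0.04 (0.0020 to 0.08).

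*Srsf5* (chr12:80945504-80950507, plus strand), an SR protein that binds exonic enhancers, had 1941 (WT) and 2743 (labelled Ezh2 KO) normalised counts. The log2 ratio was 0.50 (0.42 to 0.58), a 1.41-fold difference that stayed under the fold used for calls. Its transcripts shared 20.8% of their 61-base windows with 1 annotated pseudogene, and the part of reads lost or gained there was not tested. *Srsf4*, closely related in sequence and function, was at 674.5 and 835.5 normalised counts, a log2 ratio of 0.31 (0.16 to 0.46), although 43.0% of its exon bases overlap another annotated gene. *Srsf6*, the third member of that subgroup, was at 1060 and 1083, a log2 ratio of 0.03 (-0.09 to 0.15).

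*Srsf12* (chr4:33208991-33233340, plus strand), an SR-related protein known to oppose SR protein activity, was barely detected. It had 3 (WT) and 16 (labelled Ezh2 KO) counts, which normalise to 2.57 and 18.6, and the ratio of normalised counts was 7.24 with an interval of 2.07 to 38.8. With so few counts its size is poorly fixed, and on the log2 scale it was 2.46 with 1 added and 1.64 with 5 added.

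The remaining *Srsf* genes lay within 0.32 of 0 on the log2 scale. *Srsf1*, the founding SR protein, was at 681.4 and 587.3 normalised counts, a log2 ratio of -0.21 (-0.38 to -0.05). No other *Srsf* gene had an interval below 0. *Srsf2* was at 1936 and 1915, a log2 ratio of -0.02 (-0.11 to 0.08), with 25.3% of its exon bases overlapping *Mettl23* and *Mfsd11*. *Srsf3*, which also takes part in mRNA export, was at 2286 and 2373, a log2 ratio of 0.05 (-0.03 to 0.14). The intervals of *Srsf2* and *Srsf3* lay wholly within 0.32 of 0 in both directions, as far as counting error goes. *Srsf7*, *Srsf9*, *Srsf10* and *Srsf11* ran from -0.01 (*Srsf9*, 796.4 and 793.6) to 0.14 (*Srsf10*, 425.6 and 469.6), each with an interval that held 0.

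**Figure D2:**
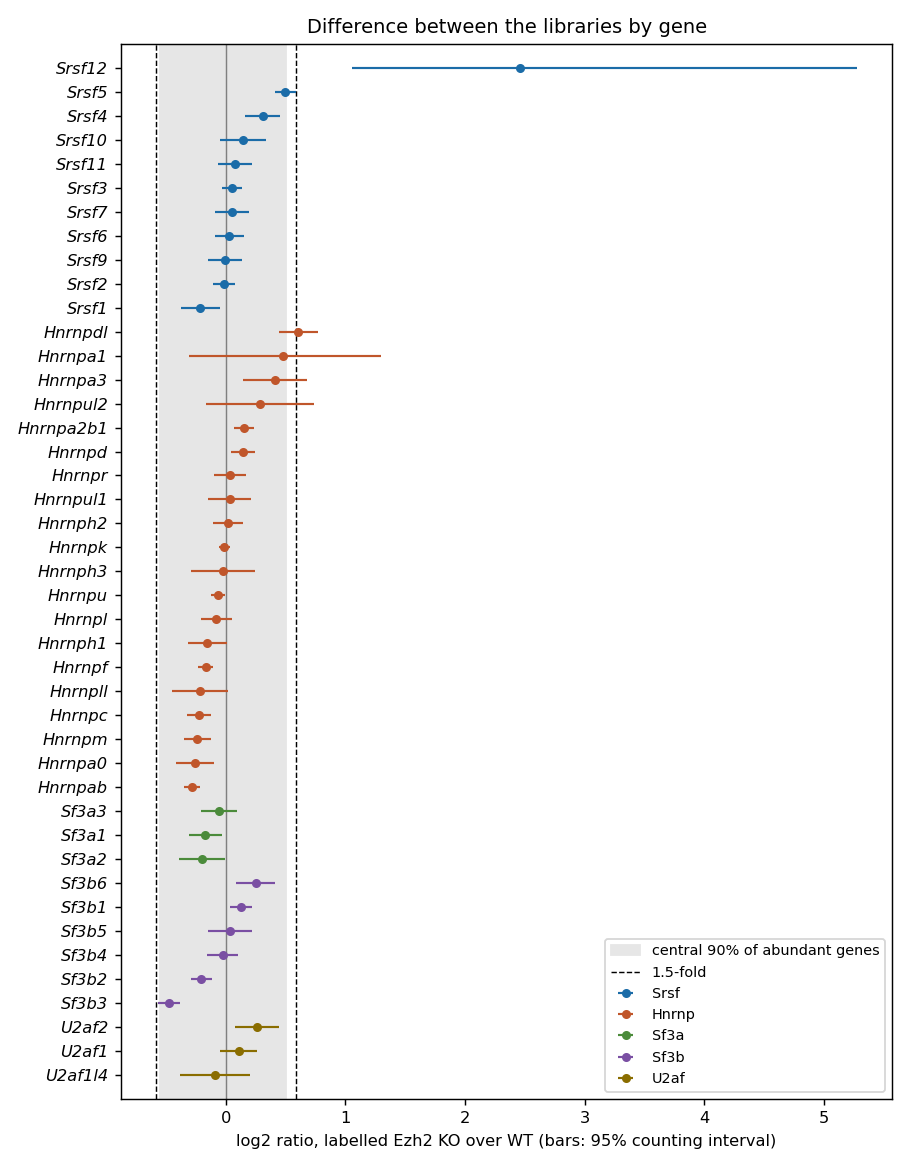
Log2 ratio of each of the 43 genes, library labelled Ezh2 KO over WT, with its 95% counting interval (bars), coloured by family; dashed lines mark 1.5-fold and the grey band holds the central 90% of genes with at least 100 normalised counts (-0.55 to 0.50). *Hnrnpdl* and *Srsf12* lie beyond 1.5-fold, and *Sf3b3*, at -0.47, is lowest.

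The *Hnrnp* genes were balanced around 0. Of the 20, 9 lay above and 11 below, with a median log2 ratio of -0.02, and they took 0.70% and 0.684% of gene counts (summed log2 ratio -0.06, -0.09 to -0.04).

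*Hnrnpdl* (chr5:100033577-100039664, minus strand), an hnRNP of the *Hnrnpd* subgroup that regulates its own transcript through NMD, was the member past 1.5-fold with ample counts. It had 498.6 (WT) and 758.6 (labelled Ezh2 KO) normalised counts, a log2 ratio of 0.60 (0.44 to 0.77). Its fold was 1.52, just above the threshold, and the next member below it was *Srsf5* at 1.41. *Hnrnpd* itself, which encodes the mRNA decay factor AUF1, was at 1540 and 1699, a log2 ratio of 0.14 (0.04 to 0.24).

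Among the A and A/B types, several of which bind UAG motifs, directions were mixed. *Hnrnpa3* was at 200.8 and 266.9 normalised counts, a log2 ratio of 0.41 (0.14 to 0.68), and *Hnrnpa2b1* at 2331 and 2593, a log2 ratio of 0.15 (0.07 to 0.24). *Hnrnpa0* was at 726.8 and 609.5, a log2 ratio of -0.25 (-0.41 to -0.10), and *Hnrnpab* at 4218 and 3470, a log2 ratio of -0.28 (-0.35 to -0.22), the lowest of the family. Of the exon bases of *Hnrnpab*, 29.1% overlap *Phykpl*. *Hnrnpa1*, usually among the most abundant hnRNPs, was listed with only 28 and 29 counts, which gave a log2 ratio of 0.48 (-0.31 to 1.29). Its transcripts shared 45.8% of their windows with 16 other genes, 15 of them pseudogenes, so its level here is uncertain, and the part of shared sequence in it was not tested. *Hnrnpa3* shared 27.2% of its windows with 41 genes, 37 of them pseudogenes.

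The most abundant hnRNPs differed little. *Hnrnpk*, which binds C-rich RNA, was at 7159 and 7097 normalised counts, a log2 ratio of -0.01 (-0.06 to 0.04). *Hnrnpu*, a scaffold protein of the nucleus that binds RNA and chromatin, was at 5181 and 4956, a log2 ratio of -0.06 (-0.12 to -0.01). *Hnrnpf*, which binds G-runs, was at 4544 and 4044, a log2 ratio of -0.17 (-0.23 to -0.11), with 41.5% of its windows shared with other genes.

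*Hnrnpc* and *Hnrnpm* were lower by a similar amount: *Hnrnpc*, which binds uridine tracts and packages nascent transcripts, was at 1843 and 1579 normalised counts, a log2 ratio of -0.22 (-0.32 to -0.12). *Hnrnpm* was at 1472 and 1248, a log2 ratio of -0.24 (-0.35 to -0.13). *Hnrnpll*, known for directing the splicing of *Ptprc* (CD45) in lymphocytes, was at 334.7 and 287.8, a log2 ratio of -0.22 with an interval from -0.45 to 0.02, and its relative *Hnrnpl* was at 1014 and 960.2. The intervals of the other 7 *Hnrnp* genes (*Hnrnph1*, *Hnrnph2*, *Hnrnph3*, *Hnrnpl*, *Hnrnpr*, *Hnrnpul1* and *Hnrnpul2*) also held 0, with ratios from -0.15 (*Hnrnph1*, 688.2 and 618.8) to 0.28 (*Hnrnpul2*, 76.4 and 93.2).

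No SF3 gene passed 1.5-fold, beside 3.15% higher and 4.08% lower of genes with at least 100 normalised counts. These genes are too few to be set apart from those shares. All 3 *Sf3a* genes lay below 0, with a median log2 ratio of -0.17 and a summed one of -0.14 (-0.23 to -0.05). The 6 *Sf3b* genes were split 3 and 3 around a median of 0.0047. Their summed log2 ratio was -0.13 (-0.18 to -0.09), but -0.0051 (-0.06 to 0.05) without *Sf3b3*, which was left out after its value was seen. *Sf3a1* was at 941.4 and 835.5 normalised counts, a log2 ratio of -0.17 (-0.31 to -0.03). *Sf3a2* was at 479.7 and 418.3, a log2 ratio of -0.20 (-0.39 to -0.004). *Sf3a3* was at 749.2 and 721.3, and its interval held 0.

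*Sf3b3* (chr8:110810239-110846787, minus strand), the large scaffold that holds *Sf3b1* in the U2 snRNP and is also found in the SAGA acetyltransferase complex, was the lowest member. It had 2602 (WT) and 1873 (labelled Ezh2 KO) normalised counts, a log2 ratio of -0.47 (-0.56 to -0.39), or 0.720-fold. None of its windows was shared with another gene and 3.05% of its exon bases overlapped one. *Sf3b1*, the HEAT-repeat protein at the branch point, lay on the other side of 0, at 1781 and 1943, a log2 ratio of 0.13 (0.03 to 0.22). *Sf3b2* was at 2181 and 1894, a log2 ratio of -0.20 (-0.29 to -0.11), and *Sf3b6*, the small subunit that touches the branch adenosine, at 577.5 and 686.4, a log2 ratio of 0.25 (0.09 to 0.41). *Sf3b4* (962.8 and 945.1) and *Sf3b5* (497.7 and 510.4) had intervals that held 0. Subunits of a single complex thus spanned log2 ratios from -0.47 to 0.25.

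Of the *U2af* genes, *U2af2*, the large subunit, was at 432.5 and 518.6 normalised counts, a log2 ratio of 0.26 (0.07 to 0.45). *U2af1*, the small subunit, was at 677.1 and 729.5, a log2 ratio of 0.11 (-0.05 to 0.26). *U2af1l4*, a paralog of the small subunit, was at 206.0 and 193.4, a log2 ratio of -0.09 (-0.38 to 0.20). *U2af1* shared 47.9% of its windows with other genes, *U2af2* 20%, and 66.1% of the exon bases of *U2af1l4* overlapped *Psenen* or *Gm49396*, so the values of this family are uncertain beyond counting error.

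A ratio between 2 genes within a library does not depend on scaling. It was taken for 16 pairs of related genes or partners, some of which share a gene, and for 7 the counting interval of its change excluded 1. No share was computed over other gene pairs, and since intervals of single abundant genes excluded 0 for 20.3% above and 24.0% below, this count says nothing particular about these pairs. *Srsf5* over *Srsf6* was 1.83 and 2.53, a ratio of ratios of 1.38 (0.32 to 0.62 on the log2 scale), and *Hnrnpdl* over *Hnrnpd* was 0.324 and 0.447, also 1.38 (0.27 to 0.66 on the log2 scale). *Sf3b3* over *Sf3b1* was 1.46 and 0.964, a ratio of ratios of 0.660 (0.603 to 0.721). In the library labelled Ezh2 KO their counts were nearly equal, at 1607 and 1667. *Hnrnpa2b1* over *Hnrnpa0* was 3.21 and 4.25, a ratio of ratios of 1.33 (1.17 to 1.5). The remaining 3 were *Srsf4* over *Srsf6* at 1.21, *Srsf5* over *Srsf4* at 1.14 and *Srsf12* over *Srsf10* at 6.56, the last with an interval of 1.86 to 35.3.

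For the other 9 pairs the interval held 1, which does not show that their balance was equal. *Srsf3* over *Srsf7* was 2.79 in both libraries, a ratio of ratios of 1.00 (0.892 to 1.12), and *Hnrnph1* over *Hnrnpf* had 1.01 (0.896 to 1.14). *U2af1* over *U2af2*, the subunits of a heterodimer, had 0.899 (0.759 to 1.06). The lowest and the highest of the 9 were *Srsf1* over *Srsf9* at 0.865 (0.743 to 1.01) and *Hnrnpa3* over *Hnrnpa2b1* at 1.19 (0.983 to 1.45), values as far from 1 as *Srsf5* over *Srsf4*.

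**Figure D3:**
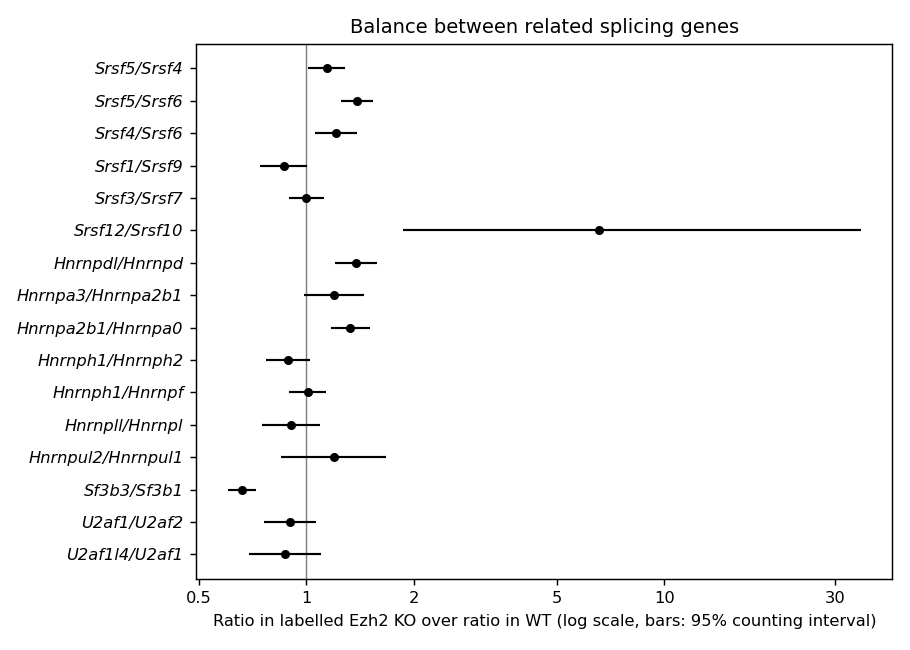
Ratio of ratios for the 16 pairs (log scale), the within-library ratio of the first to the second gene in the library labelled Ezh2 KO divided by that in WT, with 95% counting intervals (bars). *Sf3b3*/*Sf3b1* at 0.660 lies below 1, and *Srsf5*/*Srsf6* and *Hnrnpdl*/*Hnrnpd*, both at 1.38, lie above it.

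Splicing factor genes have many processed pseudogenes, and reads that fit several places are often left uncounted. Over the libraries, 10.7% (WT) and 12.3% (labelled Ezh2 KO) of all entries were recorded as not uniquely aligned. In the annotation, 21 of the 43 genes shared at least one exact 61-base window with a gene elsewhere, and for 11 this was at least 10% of windows, from 11.6% (*Srsf10*) to 47.9% (*U2af1*). *Sf3b4* (46.6%), *Srsf3* (28.2%), *Hnrnpk* (19.0%) and *Hnrnph2* (13.4%) were among these 11. A further source of ambiguity, exon overlap with another gene, reached at least 10% for 7, among them *Hnrnpab* (29.1%), *Sf3a2* (16.1%) and *Hnrnpm* (14.7%). The 26 genes under 10% on both measures had a median log2 ratio of 0.01, with 2 higher and 0 lower, and both called genes, *Sf3b3* and *Srsf1* were among them.

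**Figure D4:**
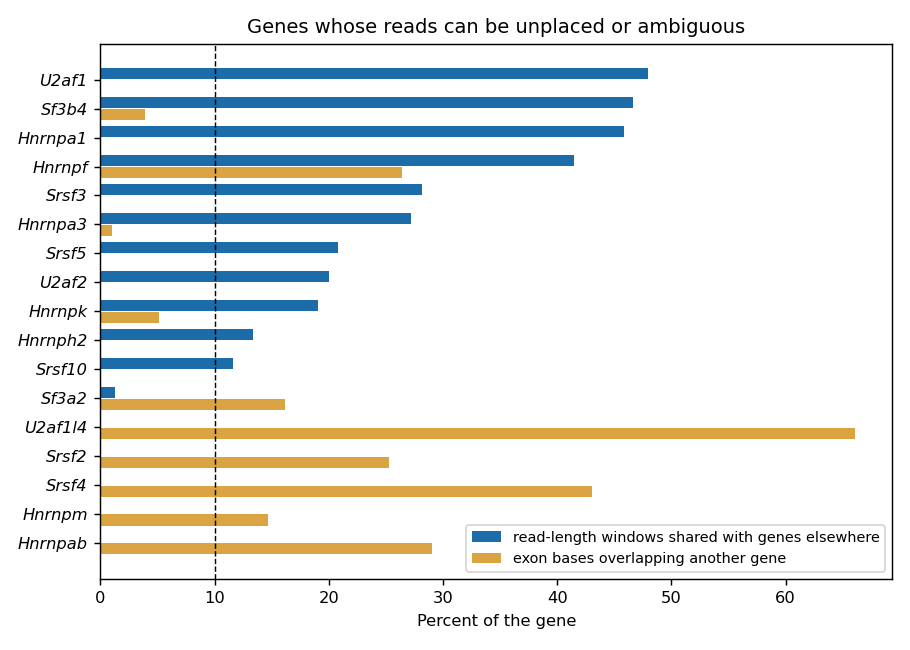
Percent of each gene's 61-base transcript windows found in genes elsewhere (blue) and percent of its exon bases that overlap another gene (yellow), for the 17 genes at 10% or more on either measure; the dashed line is at 10%. *U2af1* (47.9% of windows) and *U2af1l4* (66.1% of exon bases) lead the 2 measures.

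Transcripts that end in NMD were annotated for 23 of the 43 genes (53.5%), against 28.1% of compared genes with an annotation. They were frequent among *Srsf* (9 of 11) and *U2af* (3 of 3) genes, in 10 of 20 *Hnrnp* genes, and rare among *Sf3b* (1 of 6, *Sf3b1*) and *Sf3a* (0 of 3) genes. The median log2 ratio was 0.05 over the 23 and -0.10 over the other 20. A retained intron was annotated for 32 of 43 (74.4%), against 57.9% of compared genes. Counts per gene do not separate productive from NMD transcripts, so the values above may mix both.

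For 10 of the 43 genes an annotated gene on the opposite strand starts near their own start and runs the other way. *Enoph1*, an enzyme of methionine salvage that starts 321 bases from *Hnrnpdl*, was at 313.2 and 231.9 normalised counts, or -0.43 (-0.69 to -0.18) on the log2 scale, the opposite sign to *Hnrnpdl* at 0.60. *Cog4*, a Golgi tethering subunit whose start overlaps that of *Sf3b3* by 187 bases, was at 341.5 and 264.5, a log2 ratio of -0.37 (-0.61 to -0.13), the same sign as *Sf3b3*. *Cbx3*, a heterochromatin protein 466 bases from *Hnrnpa2b1*, was at 449.7 and 363.6, a log2 ratio of -0.31 (-0.51 to -0.10), beside 0.15 for *Hnrnpa2b1*. *Gla*, a lysosomal galactosidase 54 bases from *Hnrnph2*, had 14 and 35 counts, a log2 ratio of 1.68 (0.83 to 2.77), beside 0.02 for *Hnrnph2*. The neighbours named so far are those whose interval excluded 0. The intervals of *Cbx5*, *Ccdc157*, *Lrrc40*, *Pbld2* and *Ttc9c* held 0, and *Ttc39d* had 0 counts in both libraries. The sign was thus shared for *Cog4* and opposite for *Enoph1* and *Cbx3*. For *Gla* no sign can be compared, because the interval of *Hnrnph2* held 0.

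The other genes of the splicing machinery were taken from 8 lists with 135 symbols, of which 132 were in the files and 130 were compared. *Snu13*, *Hnrpdl* and *Hnrpll* were not in the files under those names. Of those 130, 2 were at least 1.5-fold higher and 5 at least 1.5-fold lower, beside a background of 10.5% and 10.0%, and the median log2 ratio was 0.0050. Of the 120 with at least 100 normalised counts, 0 were higher and 1 (*Pcbp1*) lower, beside 3.15% and 4.08% of genes that abundant. List medians ran from -0.04 (proteins of the NTC and the catalytic core, 20 genes) to 0.14 (the Sm core of the snRNPs, 7 genes). The gene with the most counts among those called was *Pcbp1*, a relative of *Hnrnpk* that also binds C-rich RNA and has no introns. It was at 2602 and 1717 normalised counts, a log2 ratio of -0.60 (-0.69 to -0.51). *Rbfox2*, a regulator that binds UGCAUG, was at 106.4 and 52.4, a log2 ratio of -1.01 (-1.55 to -0.52), and *Magohb*, of the exon junction complex, at 60.9 and 92.1, a log2 ratio of 0.59 (0.11 to 1.08). The other 4, *Zrsr1*, *Ddx23*, *Ptbp2* and *Taf15*, averaged under 50 normalised counts and were named after their values were seen.

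**Figure D5:**
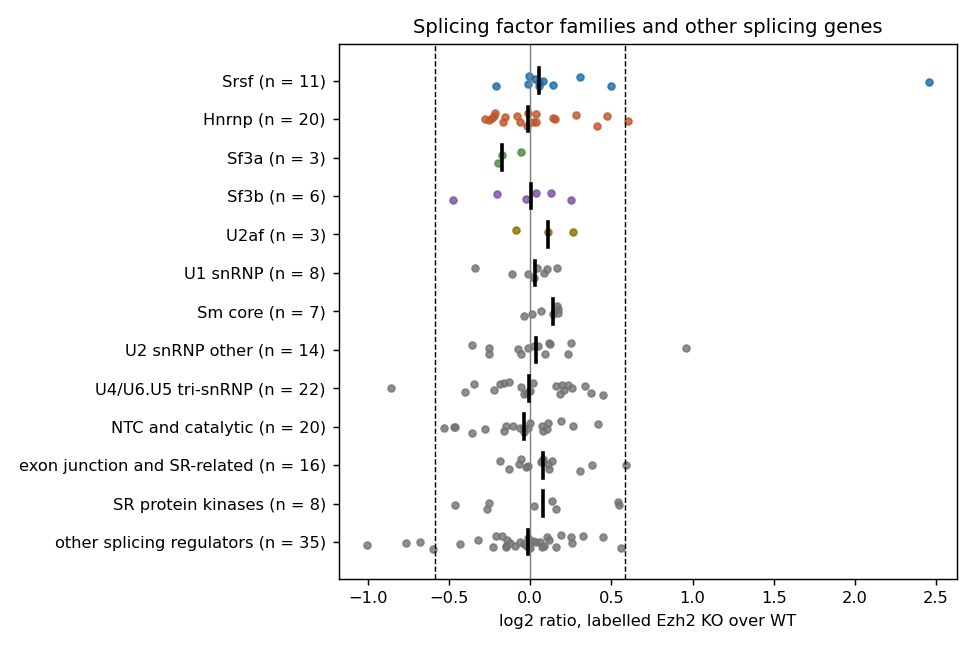
Log2 ratio, library labelled Ezh2 KO over WT, of each gene (points) in the 5 families and the other splicing lists, with the median of each set marked; n is the number of genes compared. The medians lie near 0, from -0.17 (*Sf3a*) to 0.14 (Sm core).

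SR protein kinases phosphorylate the arginine-serine tails of SR proteins and so set where they act. Of 8 compared, 0 passed 1.5-fold, beside 10.5% higher and 10.0% lower of all compared genes. The shares were 3.15% and 4.08% for genes with at least 100 normalised counts, a level that *Clk2* did not reach. So few genes cannot be set apart from those shares. Their values spread in both directions. *Srpk2*, a cytoplasmic kinase that sends SR proteins to the nucleus, was at 254.9 and 371.7 normalised counts, a log2 ratio of 0.54 (0.31 to 0.78), and its relative *Srpk1* at 278.0 and 282.0, a log2 ratio of 0.02 (-0.23 to 0.27). *Clk3*, a nuclear kinase of the CLK group, was at 343.3 and 502.2, a log2 ratio of 0.55 (0.35 to 0.75). Its relatives *Clk4*, at 255.7 and 185.3, and *Clk1*, at 583.5 and 488.3, had log2 ratios of -0.46 (-0.75 to -0.18) and -0.26 (-0.44 to -0.08). The intervals of *Clk2*, *Prpf4b* and *Dyrk1a* held 0, and *Srpk3*, with 0 and 2 counts, was not compared.

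Of 10 splicing genes that are recurrently mutated in myelodysplasia, 0 passed 1.5-fold. Among all compared genes 10.5% were higher and 10.0% lower by that fold, and 3.15% and 4.08% of those with at least 100 normalised counts. A list this short cannot be set apart from those shares. Their log2 ratios ran from -0.28 (*Ddx41*, 318.4 and 262.2 normalised counts) to 0.26 (*U2af2*). The most often mutated, *Sf3b1*, *Srsf2* and *U2af1*, had the values 0.13, -0.02 and 0.11 given above, and *Zrsr2*, which reads the 3′ splice site of minor introns, was at 127.0 and 151.5, a log2 ratio of 0.25 (-0.10 to 0.60). *Sf1*, the first protein at the branch point, and *Prpf8*, the core of the spliceosome, were lower, with log2 ratios of -0.25 (-0.38 to -0.13) and -0.22 (-0.34 to -0.11), while *Luc7l2*, a U1-associated protein, had 0.02. These counts describe RNA level and do not show mutation or the splicing of any target.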

How the data were processed

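The authors deposited raw, unnormalised read counts for each gene symbol. The submitters' processing notes name mm10, TopHat2 2.0.13, Bowtie2 2.1.0 and StringTie without roles, and the labels give 61 sequencing cycles. The last 5 entries carry names that htseq-count writes, so the counter and its strand setting are not settled, and they were kept out of totals (44.9% and 44.1% of all entries were reads on no gene). Counts were divided by DESeq2 1.42.0 median-of-ratios size factors, 1.17 for WT and 0.858 for the library labelled Ezh2 KO. Log2 ratios used a pseudocount of 1. Intervals were exact Clopper-Pearson intervals of the binomial share, without the pseudocount, and exact conditional intervals for pairs, in SciPy 1.17.1. PCR reads are not independent molecules. Ratios, calls and intervals were tested on simulated data that held counting error only, which checks the code and not the spread between animals. Neither edgeR's nor DESeq2's test could be fitted with 1 library per group. GENCODE M21 (GRCm38) matched 24002 of 24421 symbols and all 43 members, and gave positions, exon bases and exact shared windows, a lower bound for ambiguous reads. Promoters came from RefSeq (GRCm38.p6), the first window listed per gene.

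Every member is accounted for. Other splicing genes were named if at least 1.5-fold apart and averaging 50 or more normalised counts, or if they were kinases or mutated in myelodysplasia. Members and lists were chosen with earlier results of these data known. Alternatives were other scaling (TMM in edgeR 4.0.16, total counts, thinning), pseudocounts, filters, thresholds and a correction for exon length.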

Additional observations from a re-analysis of the deposited data

How the results depend on the processing

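No paired analysis was possible because WT and Ezh2 KO have 1 library apiece. The number of members at least 1.5-fold higher went from 2 to 1 with a mean of at least 10 CPM, 1 at 2-fold, 5 at the lower threshold of 0.32 on the log2 scale and 10 where the counting interval excludes 0, and the number lower from 0 to 1 at that threshold (*Sf3b3*) and 11 by the interval. Of the other splicing genes, 1 in place of 2 was higher with a pseudocount of 5, at 10 CPM and with the exon-length trend removed, and 2 in place of 5 were lower at 10 CPM. The median log2 ratio of members was 0.049 with total-count scaling, -0.0036 after thinning to equal depth, -0.0050 at 10 CPM and -0.0019 without the length trend. Removing that trend also took the *U2af* median from 0.11 to 0.0035, *U2af1l4* from -0.09 to -0.23 and *Sf3b6* from 0.25 to 0.15. Total-count scaling gave 0.013 for *Hnrnp*, 0.035 for other splicing genes and -0.00088 for the summed counts, and moved the median of all compared genes to 0.026. Thinning gave -0.11 for *Sf3a* and *Sf3b* and 0.025 for other splicing genes. After thinning, *Hnrnpdl* fell under 1.5-fold and *Hnrnpa1* passed it. The ratio of *Srsf12* depended on the pseudocount. The cause of these moves was not tested, and medians this close to 0 have no fixed sign. Leaving out members with shared or overlapping sequence was chosen after seeing the data; it left no *U2af* gene. With TMM scaling, a pseudocount of 0.5 or no low-count filter, every count stayed within 1.5 times the reported one. Depth limits what can be said of *Srsf12* and *Hnrnpa1*.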
